A study of Mus musculus with 6 samples.

Results

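The genes described here are 10 genes best known from the surface and junctions of endothelial cells, the cells that line blood vessels, measured in sorted mouse germ cells. They are Cdh5, Vwf, Kdr, Flt1, Pecam1, Tek, Cd93, Eng, Podxl and Nos3, and they make up 10 of the 54087 gene rows of the deposited count files. The genes were picked from this same comparison, because some were higher in Dnmt3A KO/KO libraries while others were not, so their differences are given as a description with no test. RNA was sequenced from 3 Dnmt3A KO/KO and 3 Dnmt3A WT/WT samples of male C57BL/6 germ cells taken 10 days post partum and sorted for bright and medium Id4-GFP fluorescence, a gate labelled as approximating spermatogonial stem cells. Both genotypes carry the Id4-GFP reporter. The labels name neither the allele nor any Cre driver, and they number the samples of a genotype without saying that they came from separate animals, so p-values measure only the spread between these samples, which may be technical.

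In blood vessels, VE-cadherin (the product of Cdh5) and PECAM1 hold neighbouring endothelial cells together, the VEGF receptors KDR and FLT1 and the angiopoietin receptor TEK receive growth signals, and endoglin, CD93 and podocalyxin sit on the cell surface. Von Willebrand factor is stored and released to capture platelets, and the NOS3 enzyme makes nitric oxide that relaxes the vessel wall. Germ cells lie inside the seminiferous tubule, which holds no vessels, while capillaries run between the tubules. DNMT3A is a de novo DNA methyltransferase, which adds methyl groups to cytosines in CpG dinucleotides.

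The promoters of 4 of the 10 genes were found in RefSeq's promoter table (GRCm38.p6), and they are shown because DNMT3A acts on CpG dinucleotides and because Kdr, Flt1 and Eng were higher in KO/KO libraries and Tek was not. Each line gives the 250 bases before the start of the gene, 5′ to 3′ on the strand of the gene, with every CpG in capitals.
Kdr: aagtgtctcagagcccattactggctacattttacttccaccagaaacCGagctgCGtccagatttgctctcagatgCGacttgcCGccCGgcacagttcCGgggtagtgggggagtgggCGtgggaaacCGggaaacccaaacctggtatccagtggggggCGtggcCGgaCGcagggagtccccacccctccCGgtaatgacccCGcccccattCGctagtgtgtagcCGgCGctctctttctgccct
Flt1: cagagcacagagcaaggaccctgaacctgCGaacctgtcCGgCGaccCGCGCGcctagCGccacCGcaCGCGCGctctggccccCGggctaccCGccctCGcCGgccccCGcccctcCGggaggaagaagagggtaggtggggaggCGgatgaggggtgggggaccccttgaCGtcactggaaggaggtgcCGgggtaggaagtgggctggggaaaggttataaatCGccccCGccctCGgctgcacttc
Tek: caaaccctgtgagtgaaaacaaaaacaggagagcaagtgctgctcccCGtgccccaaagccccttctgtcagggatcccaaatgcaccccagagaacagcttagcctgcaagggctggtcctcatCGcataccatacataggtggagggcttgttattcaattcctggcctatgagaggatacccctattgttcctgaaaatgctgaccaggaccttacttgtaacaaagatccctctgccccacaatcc
Eng: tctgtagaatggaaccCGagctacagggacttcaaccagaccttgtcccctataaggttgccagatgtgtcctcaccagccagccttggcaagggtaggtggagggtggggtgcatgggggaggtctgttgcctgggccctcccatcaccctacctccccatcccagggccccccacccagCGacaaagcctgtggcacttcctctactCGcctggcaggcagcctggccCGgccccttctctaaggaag
The Kdr window (chr5:75978456-75978705, minus strand) held 16 CpG, more than 74.6% of the 32851 promoter windows of this length in the table. The Flt1 window (chr5:147726012-147726261, minus strand) held 23 CpG, more than 86.7% of them. In the Eng window (chr2:32646345-32646594, plus strand) there were 4 CpG and in the Tek window (chr4:94739039-94739288, plus strand) there were 2, above 37.8% and 18.8% of promoter windows. The genes higher in KO/KO libraries thus had both CpG-rich windows (Kdr, Flt1) and a CpG-poor one (Eng). No methylation was measured in these libraries.

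The windows were also searched on both strands for short motifs. GGAA, the core bound by ETS factors, occurred 4 times in Kdr, 4 times in Flt1, 2 times in Tek and 3 times in Eng, and 93.4% of all promoter windows hold it. GGGCGG, a GC box, occurred 2 times in Kdr and 3 times in Flt1 and is held by 32.7% of windows. Flt1 had 1 TATAAA, which 12.4% of windows hold. GATAA was in none of the 4 windows and is in 22.6% of all windows, and CANNTG, the E-box pattern, occurred once in Kdr and Eng and 2 times in Tek, against 66.2% of windows that hold it.

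The libraries held between 42681201 and 61749155 reads on gene rows, so that 1 CPM (the count scaled to a common total of gene counts with TMM factors) stood for between 40.8 and 64.49 reads. Dnmt3a itself had 90.2, 104 and 99.5 CPM in KO/KO libraries and 215, 193 and 188 CPM in WT/WT libraries (n = 3 each, log2 fold change -1.02, SE 0.09, edgeR adjusted p = 0.000222). Counts were made over the whole gene, and the exons behind the reads left in KO/KO libraries are not known. The germ cell genes Ddx4 and Dazl stood at 437 ± 32.6 and 353 ± 49.4 CPM in KO/KO libraries and at 369 ± 10.2 and 433 ± 32.1 CPM in WT/WT libraries (SD, n = 3 each), which fits the labelled cell type, and neither passed the test. By the chi-square per degree of freedom of gene counts, KO/KO replicate 1 lay nearer to the WT/WT libraries, at 34.5 to 35.4, than KO/KO replicates 2 and 3 did, at 69.7 to 90.0. It differed from KO/KO replicates 2 and 3 by 36.3 and 37.1, and these differed from each other by 49.2.

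**Figure D1:**
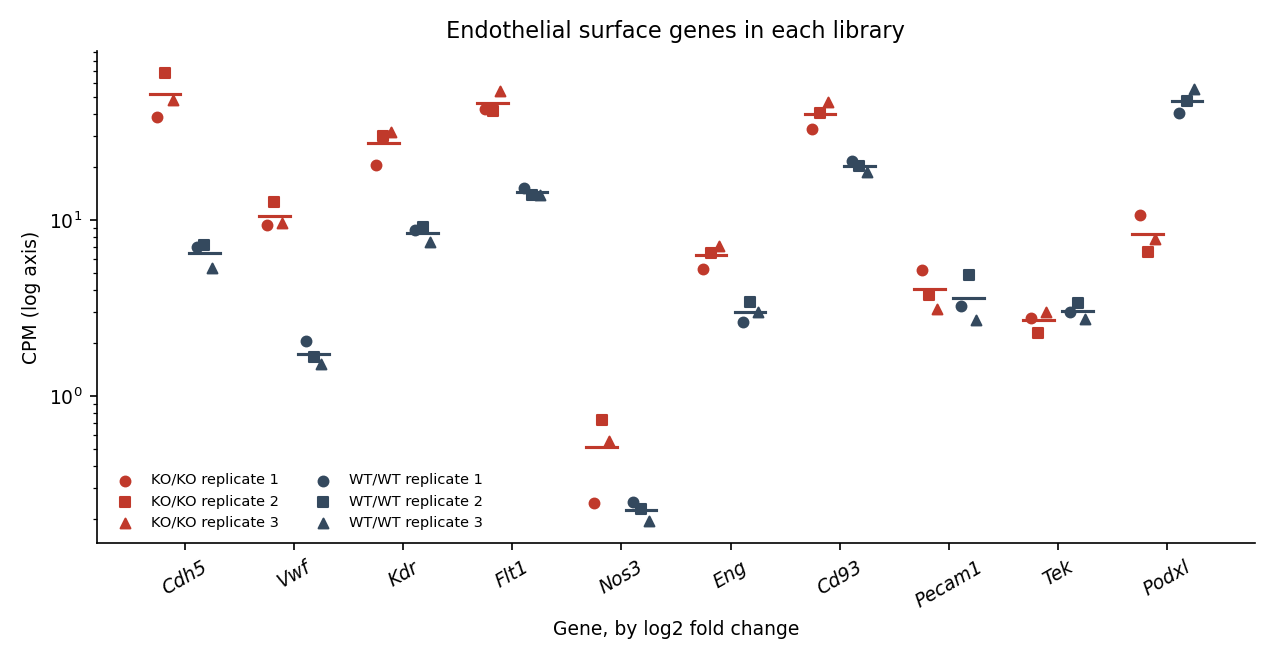
CPM of each of the 10 genes in every library on a log axis, with KO/KO libraries (red) left of WT/WT libraries (dark blue), a symbol for each replicate and a line for the mean of 3. Cdh5, Vwf, Kdr, Flt1, Cd93 and Eng are higher in every KO/KO library, Podxl is lower in every KO/KO library, and the genotypes overlap in Pecam1, Tek and Nos3.

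Among the junction genes, Cdh5 differed widely between the genotypes while Pecam1 overlapped. Cdh5 (ENSMUSG00000031871.9, chromosome 8, 104101625 to 104144511, plus strand, GRCm38) encodes VE-cadherin, the adhesion protein of endothelial adherens junctions. It had 38.7, 68.3 and 48.0 CPM in the KO/KO libraries, against 7.03, 7.25 and 5.32 CPM in the WT/WT libraries. Even the lowest KO/KO library, replicate 1, lay well above every WT/WT library, and the means were 51.7 ± 15.2 CPM in KO/KO and 6.53 ± 1.06 CPM in WT/WT (SD, n = 3 each). The log2 fold change was 2.98 (SE 0.22), above that of 99.4% of the 21314 genes tested, and 3.16 without KO/KO replicate 1. In bulk RNA, fewer or more cells of a type and less or more RNA per cell cannot be told apart, so these levels do not show how many cells carried the transcript.

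Pecam1 (ENSMUSG00000020717.19, chromosome 11, 106654217 to 106750628, minus strand) encodes CD31, an adhesion protein of endothelial junctions that is also found on leukocytes and platelets. It had 5.23, 3.77 and 3.12 CPM in KO/KO libraries and 3.24, 4.88 and 2.7 CPM in WT/WT libraries, so the genotypes overlapped and each held both high and low libraries. The log2 fold change was 0.16 (SE 0.28) and changed sign, to -0.06, without KO/KO replicate 1. Per kilobase of exon, Cdh5 was 11, 26.9 and 22.8 times as abundant as Pecam1 in the KO/KO libraries, against 3.21, 2.20 and 2.92 times in the WT/WT libraries. The genes of this pair, which stand side by side in endothelial junctions, thus kept no common ratio across the genotypes.

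The partners of VE-cadherin were read beside Cdh5. Of 18 tested genes of the cadherin complex and of endothelial tight junctions, 2 rose and 1 fell, and 15 did not pass the test, where 8.33% of all tested genes rose and 6.42% fell. The median log2 fold change of the list was -0.05, beside 0.00 over all genes tested. Ctnnb1, which encodes β-catenin, the link between cadherins and the cytoskeleton, stood at 304 ± 15.6 CPM in KO/KO and 293 ± 4.13 CPM in WT/WT libraries (n = 3 each, log2 fold change 0.05, edgeR adjusted p = 0.675); the gene was chosen with its values known. Cgnl1, which encodes the junction protein paracingulin, rose to 137 ± 26 CPM in KO/KO, against 62.2 ± 7.49 CPM in WT/WT (log2 fold change 1.13, SE 0.14, edgeR adjusted p = 0.00128). Radil, an effector of the small GTPase RAP1 in cell adhesion, fell to 24.8 ± 2.44 CPM in KO/KO, against 47.1 ± 2.51 CPM in WT/WT (log2 fold change -0.92, SE 0.11, edgeR adjusted p = 0.000855). Tjp1, the tight junction scaffold ZO-1, had 669 ± 84.4 CPM in KO/KO and 501 ± 30.1 CPM in WT/WT (log2 fold change 0.42, SE 0.10, edgeR adjusted p = 0.0205), but the call was lost without WT/WT replicate 2 (edgeR adjusted p = 0.0804) or replicate 3 (0.0940), which leaves 1 gene that rose.

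The receptor genes for VEGF were both higher in every KO/KO library, and by nearly the same factor. Kdr (ENSMUSG00000062960.10, chromosome 5, 75932827 to 75978458, minus strand) encodes the main signalling receptor for VEGFA. It had 20.6, 30.2 and 31.7 CPM in KO/KO libraries and 8.81, 9.08 and 7.55 CPM in WT/WT libraries. The genotypes did not overlap, and KO/KO replicate 1 was again the lowest of its group. The means were 27.5 ± 5.99 CPM in KO/KO and 8.48 ± 0.815 CPM in WT/WT, with a log2 fold change of 1.70 (SE 0.18) that became 1.87 without KO/KO replicate 1.

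Flt1 (ENSMUSG00000029648.13, chromosome 5, 147561604 to 147726011, minus strand) encodes a receptor that binds VEGFA tightly and signals weakly, and so limits what reaches KDR. It had 42.7, 41.7 and 54.0 CPM in KO/KO libraries and 15.3, 13.9 and 13.9 CPM in WT/WT libraries. The WT/WT libraries lay close together and every KO/KO library was above them, with means of 46.1 ± 6.83 CPM in KO/KO and 14.3 ± 0.813 CPM in WT/WT. The log2 fold change was 1.69 (SE 0.13). Per kilobase of exon, the ratio of Flt1 to Kdr was 1.38, 0.925 and 1.14 in KO/KO libraries and 1.16, 1.02 and 1.23 in WT/WT libraries, so the balance between these receptors overlapped between the genotypes.

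Other genes of the VEGF system were mixed: of 11 tested genes for ligands, another receptor, co-receptors and signalling proteins inside the cell, 4 rose, 1 fell and 6 did not pass the test. Over all tested genes 8.33% rose and 6.42% fell. The median log2 fold change of the list was 0.03, beside 0.00 over all genes. Flt4, the VEGF receptor of lymphatic vessels, had 6.66, 11.2 and 8.30 CPM in KO/KO libraries and 1.62, 1.37 and 1.57 CPM in WT/WT libraries (log2 fold change 2.52, SE 0.24, edgeR adjusted p = 0.000328). The co-receptor gene Nrp2 had 12.5, 14.3 and 26.3 CPM in KO/KO and 3.90, 2.97 and 2.18 CPM in WT/WT libraries (log2 fold change 2.55, SE 0.31, edgeR adjusted p = 0.00107). For both genes every KO/KO library was above every WT/WT library. Nrp1, the other neuropilin co-receptor, had 4.58 ± 1.11 CPM in KO/KO and 1.78 ± 0.754 CPM in WT/WT (edgeR adjusted p = 0.0255), and its call was lost without KO/KO replicate 3 (0.0608), WT/WT replicate 2 (0.0644) or WT/WT replicate 3 (0.0558). The ligand gene Vegfa, chosen with its values known, stood at 8.34 ± 2.94 CPM in KO/KO and 9.0 ± 0.453 CPM in WT/WT (edgeR adjusted p = 0.815, n = 3 each). With KO/KO replicate 3, WT/WT replicate 2 or WT/WT replicate 3 left out, 2 genes of the list rose, and with KO/KO replicate 2, KO/KO replicate 3 or any single WT/WT library left out none fell.

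Tek (ENSMUSG00000006386.15, chromosome 4, 94739289 to 94874976, plus strand) encodes TIE2, the receptor for angiopoietins that keeps vessels quiescent. It had 2.77, 2.29 and 3.01 CPM in KO/KO libraries and 2.99, 3.39 and 2.75 CPM in WT/WT libraries. The genotypes overlapped, with a log2 fold change of -0.18 (SE 0.21). Kdr was 3.89, 6.87 and 5.50 times as abundant per kilobase as Tek in KO/KO libraries, against 1.54, 1.40 and 1.43 times in WT/WT libraries.

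Of 5 tested genes of angiopoietin and TIE signalling, edgeR, DESeq2 and limma-voom each called 0, and 1 was higher at an unadjusted p under 0.05. Over all tested genes 8.33% rose and 6.42% fell by edgeR, and 6284 of 21314 had an unadjusted p under 0.05 in either direction. So few genes cannot be told from these shares. With no filter on low counts, or with KO/KO replicate 1, KO/KO replicate 3 or WT/WT replicate 1 left out, edgeR called 1 lower. Angpt1, which encodes the activating ligand of TIE2 and was chosen with its values known, had too few reads to be tested. It had 0.0447, 0.0203 and 0.0465 CPM in KO/KO libraries and 0.205, 0.374 and 0.368 CPM in WT/WT libraries, lower in every KO/KO library. The median log2 fold change was -0.25, beside 0.00 over all genes. Angpt2, the ligand that loosens vessels, stood at 1.07 ± 0.199 CPM in KO/KO and 0.601 ± 0.0706 CPM in WT/WT (log2 fold change 0.84, SE 0.33, edgeR adjusted p = 0.126). The adaptor gene Dok2 stood at 1.68 ± 0.748 CPM in KO/KO and 2.37 ± 0.679 CPM in WT/WT. Ptprb, the phosphatase that acts on TIE2 and VE-cadherin, stood at 2.52 ± 1.16 CPM in KO/KO and 3.37 ± 0.603 CPM in WT/WT.

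Vwf (ENSMUSG00000001930.17, chromosome 6, 125546774 to 125686679, plus strand) encodes the large glycoprotein that captures platelets at injured vessels and carries clotting factor VIII. It had 9.43, 12.7 and 9.68 CPM in KO/KO libraries and 2.05, 1.66 and 1.52 CPM in WT/WT libraries. All 3 KO/KO libraries lay above the WT/WT libraries, with means of 10.6 ± 1.83 CPM in KO/KO and 1.75 ± 0.277 CPM in WT/WT and a log2 fold change of 2.60 (SE 0.21). Between 422 and 627 reads in KO/KO libraries and between 62 and 90 reads in WT/WT libraries stand behind these values.

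Of 10 tested genes for the synthesis, storage, cleavage and partners of Von Willebrand factor, 4 rose and 0 fell in the edgeR test, where 8.33% of all tested genes rose and 6.42% fell. At an unadjusted p under 0.05, 6 genes of this list were higher and 0 lower, where 6284 of all 21314 tested genes had such a p in either direction. DESeq2 and limma-voom also called 0 lower. The median log2 fold change was 0.34, beside 0.00 over all genes. F8, the clotting factor that Von Willebrand factor carries, rose to 27.0 ± 3.13 CPM in KO/KO, against 14 ± 1.32 CPM in WT/WT (log2 fold change 0.95, SE 0.13, edgeR adjusted p = 0.00183). Gp5, part of the platelet receptor for Von Willebrand factor, had 1.06 ± 0.419 CPM in KO/KO and 0.293 ± 0.0860 CPM in WT/WT (edgeR adjusted p = 0.0217, lost without KO/KO replicate 3 at 0.0663, WT/WT replicate 2 at 0.0927 or WT/WT replicate 3 at 0.0879). Of the other subunits of that receptor complex, chosen with their values known, Gp1bb and Gp9 had no read in any library. Gp1ba had 4, 3 and 2 reads in KO/KO libraries and 7, 0 and 0 reads in WT/WT libraries, too few to be tested. With WT/WT replicate 1 left out 2 genes rose, and with WT/WT replicate 2 or 3 left out 1 rose.

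Nos3 (ENSMUSG00000028978.12, chromosome 5, 24364810 to 24384474, plus strand), the endothelial nitric oxide synthase gene, was near the limit of these data, with 11, 36 and 36 reads in the KO/KO libraries and 11, 11 and 8 reads in the WT/WT libraries. In CPM these were 0.246, 0.730 and 0.558 in KO/KO and 0.251, 0.228 and 0.196 in WT/WT, so KO/KO replicate 1 lay within the WT/WT range and the other KO/KO libraries lay above it. The log2 fold change was 1.18 (SE 0.53), and 1.51 without KO/KO replicate 1. Exons of Atg9b and of the antisense gene Gm15587 on the opposite strand cover 7.12% and 25.2% of the exon bases of Nos3, and whether the counting used strand is not stated, so reads of these genes may be mixed.

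Among 15 tested genes of nitric oxide synthesis and signalling, 3 rose, 2 fell and 10 did not pass the test, where 8.33% of all tested genes rose and 6.42% fell. Their median log2 fold change was 0.06, beside 0.00 over all genes. Slc7a1, the importer of arginine from which nitric oxide is made, fell to 48.9 ± 6.91 CPM in KO/KO, against 107 ± 9.44 CPM in WT/WT (log2 fold change -1.12, SE 0.12, edgeR adjusted p = 0.000586). Ddah2 and Ddah1 break down an inhibitor of nitric oxide synthases and differed in opposite directions. Ddah2 had 15.0 ± 5.64 CPM in KO/KO and 6.92 ± 1.71 CPM in WT/WT, and Ddah1 had 22.3 ± 4.49 CPM in KO/KO and 33.3 ± 2.53 CPM in WT/WT (edgeR adjusted p = 0.0242 and 0.0281). The call of Ddah2 was lost with KO/KO replicate 3 or any single WT/WT library left out (0.0513 to 0.0924), and that of Ddah1 with any single library other than KO/KO replicate 2 left out (0.0579 to 0.110). The count of genes that rose was 1 with any single KO/KO library left out and 0 with any single WT/WT library left out. The count that fell was 1 with KO/KO replicate 1, KO/KO replicate 3 or any single WT/WT library left out.

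The surface proteins CD93, endoglin and podocalyxin did not share a direction. Cd93 (ENSMUSG00000027435.8, chromosome 2, 148436640 to 148443563, minus strand) encodes a C-type lectin receptor of endothelial and early blood cells. It had 33.0, 40.8 and 46.7 CPM in KO/KO libraries and 21.7, 20.2 and 18.8 CPM in WT/WT libraries. Every KO/KO library was higher, and the means of 40.1 ± 6.89 CPM in KO/KO and 20.3 ± 1.45 CPM in WT/WT gave a log2 fold change of 0.99 (SE 0.14). Thbd, which encodes the related lectin-domain protein thrombomodulin and lies 28.5 kb from Cd93, stood at 0.704 ± 0.396 CPM in KO/KO and 0.878 ± 0.294 CPM in WT/WT with edgeR adjusted p = 0.733.

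Of 6 tested genes of a list written around the CD93 family and C-type lectin group, 1 rose and 1 fell, where 8.33% of all tested genes rose and 6.42% fell. Their median log2 fold change was 0.16, beside 0.00 over all genes. Ubash3b, a phosphatase, rose to 18.1 ± 2.72 CPM in KO/KO, against 9.06 ± 0.597 CPM in WT/WT (log2 fold change 1.00, SE 0.15, edgeR adjusted p = 0.00256). C1qbp, which binds the complement protein C1q, fell to 54.4 ± 3.69 CPM in KO/KO, against 69.7 ± 6.27 CPM in WT/WT (edgeR adjusted p = 0.0360, and 0.0520 to 0.156 in the 5 sets with 1 library left out where the call was lost, all but that without KO/KO replicate 1). The adaptor gene Gipc1 stood at 21.9 ± 2.73 CPM in KO/KO and 16.7 ± 0.993 CPM in WT/WT (edgeR adjusted p = 0.0669). The count that rose was 2 with KO/KO replicate 1 or 2 left out, and the count that fell was 0 with KO/KO replicate 2, KO/KO replicate 3 or any single WT/WT library left out.

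Eng (ENSMUSG00000026814.16, chromosome 2, 32646595 to 32682669, plus strand) encodes endoglin, a co-receptor for BMP9 and TGF-β. It had 5.25, 6.53 and 7.16 CPM in KO/KO libraries and 2.62, 3.41 and 2.99 CPM in WT/WT libraries. The genotypes did not overlap, and the log2 fold change was 1.07 (SE 0.20) with means of 6.31 ± 0.975 CPM in KO/KO and 3.01 ± 0.391 CPM in WT/WT. Only 1.51% of its exon bases are shared with another gene, Fpgs on the opposite strand.

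In the endoglin and BMP9 pathway, 3 of 15 tested genes rose, 2 fell and 10 did not pass the test, where 8.33% of all tested genes rose and 6.42% fell. Their median log2 fold change was -0.09, beside 0.00 over all genes. Smad6, an inhibitor of BMP signalling, rose to 17.8 ± 4.85 CPM in KO/KO, against 8.91 ± 0.587 CPM in WT/WT (log2 fold change 1.00, SE 0.20, edgeR adjusted p = 0.00995). Smad7, another inhibitor, had 65.7 ± 7.50 CPM in KO/KO and 45.6 ± 5.0 CPM in WT/WT (edgeR adjusted p = 0.0156), and this call was lost without WT/WT replicate 1 (0.0616) or replicate 2 (0.0905). Smad1, which carries the BMP signal to the nucleus, had 16.7 ± 2.01 CPM in KO/KO and 24.5 ± 0.506 CPM in WT/WT (edgeR adjusted p = 0.0148, lost with each WT/WT library left out in turn at 0.0566 to 0.0674). Acvrl1, the receptor ALK1 that endoglin assists, was chosen with its values known. It had 11.2 ± 4.47 CPM in KO/KO and 5.92 ± 0.153 CPM in WT/WT (edgeR adjusted p = 0.0419), a call that held only when KO/KO replicate 2 was the library left out (0.0593 to 0.136 without each other library). With WT/WT replicate 1 or 2 left out 1 gene of the list rose, and with any single WT/WT library left out none fell.

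Podxl (ENSMUSG00000025608.9, chromosome 6, 31519488 to 31563981, minus strand) went the other way. It encodes podocalyxin, a heavily glycosylated surface protein of the CD34 family that is found on podocytes, blood vessels and stem cells. It had 10.7, 6.59 and 7.77 CPM in KO/KO libraries and 40.4, 47.2 and 55.2 CPM in WT/WT libraries. Every KO/KO library was far below every WT/WT library, and the means of 8.34 ± 2.09 CPM in KO/KO and 47.6 ± 7.42 CPM in WT/WT gave a log2 fold change of -2.51 (SE 0.19), with only 0.474% of tested genes lower. The value was -2.72 without KO/KO replicate 1.

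Relatives and partners of podocalyxin were called in both directions. Of 7 tested genes of the CD34 family and of the linkers that tie podocalyxin to actin, 2 rose, 1 fell and 4 did not pass the test. Over all tested genes 8.33% rose and 6.42% fell. The median log2 fold change of the list was -0.06, beside 0.00 over all genes. Cd34 itself, chosen with its values known, stood at 2.89 ± 1.01 CPM in KO/KO and 3.00 ± 1.59 CPM in WT/WT (n = 3 each, edgeR adjusted p = 0.945). Msn, the linker moesin, rose to 81.1 ± 5.53 CPM in KO/KO, against 47.4 ± 9.62 CPM in WT/WT (log2 fold change 0.78, SE 0.14, edgeR adjusted p = 0.00539). The linker radixin gene Rdx had 128 ± 4.75 CPM in KO/KO and 165 ± 7.16 CPM in WT/WT (edgeR adjusted p = 0.0103, lost without WT/WT replicate 1 at 0.0517 or replicate 3 at 0.0560). The scaffold gene Slc9a3r1 had 75.2 ± 12.9 CPM in KO/KO and 51.2 ± 1.91 CPM in WT/WT (edgeR adjusted p = 0.0141, lost with each WT/WT library left out in turn at 0.0579 to 0.0669). The count that rose was therefore 1 with any single WT/WT library left out, and 0 genes fell with WT/WT replicate 1 or 3 left out.

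Set side by side, the 10 genes differed in both size and sign. By the edgeR call over all genes, 6 were higher, 1 was lower and 3 were not called, where 8.33% of the 21314 tested genes were called higher and 6.42% lower. Every KO/KO library was above every WT/WT library for 6 genes and below for 1, where 18.2% and 17.5% of tested genes were. These counts follow from how the genes were chosen. Cdh5 had 7.90 times and Vwf 6.07 times the WT/WT mean in KO/KO libraries, Kdr and Flt1 3.24 and 3.22 times, and Eng and Cd93 2.10 and 1.98 times, while Podxl was 5.71 times as high in WT/WT as in KO/KO libraries. Pecam1 and Tek lie on the other side of the choice, and their libraries overlapped between the genotypes.

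**Figure D2:**
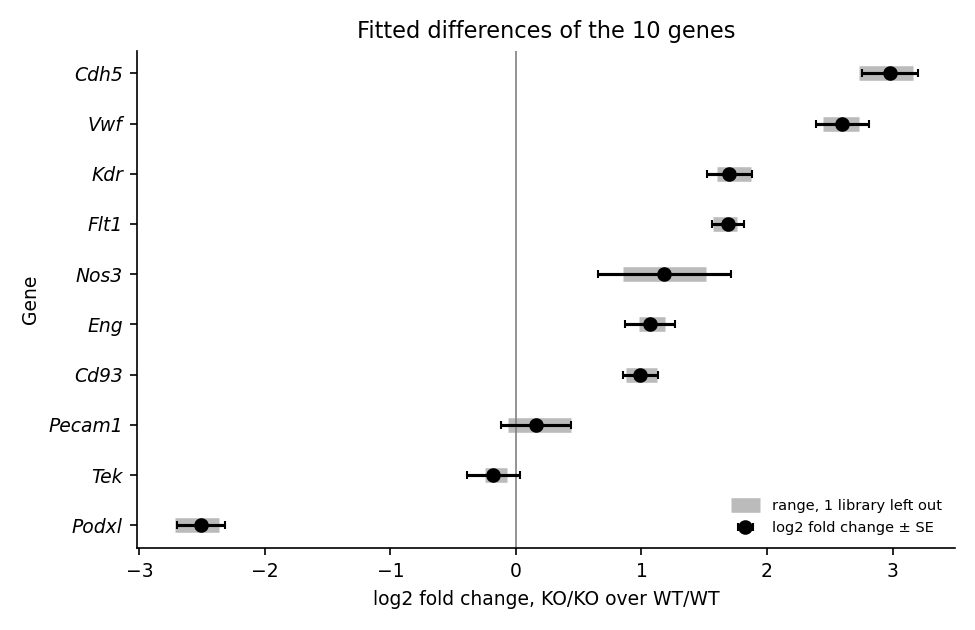
Log2 fold change of each gene (horizontal axis, KO/KO over WT/WT, edgeR) as a point with its SE as a bar, over a grey band for the range with 1 library at a time left out. Cdh5 is at 2.98 and Podxl at -2.51, and of the 10 bands only that of Pecam1 crosses 0.

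The plot of fold changes shows how far each estimate depends on single libraries. Leaving out 1 library at a time moved Cdh5 between 2.73 and 3.16, Vwf between 2.45 and 2.73, Kdr between 1.60 and 1.87 and Flt1 between 1.57 and 1.76. Podxl ranged between -2.72 and -2.37 and Tek between -0.25 and -0.07. KO/KO replicate 1 was the lowest of the KO/KO libraries for 6 of the 10 genes, in the middle for 2 and the highest for 2, and for 7 it was the KO/KO library nearest to the WT/WT mean. The coefficient of variation among KO/KO libraries was between 13.6% for Tek and 48.0% for Nos3, with 29.4% for Cdh5. Among WT/WT libraries it lay between 5.67% for Flt1 and 31.5% for Pecam1.

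Levels of different genes can be compared per kilobase of exon. In KO/KO libraries Cdh5 was highest, at 12.3 ± 3.61 CPM per kb, above Cd93 at 6.01 ± 1.03 CPM per kb. Flt1 (3.42 ± 0.506) and Kdr (3.05 ± 0.663) followed with overlapping libraries, then Eng (1.56 ± 0.241) and Podxl (1.52 ± 0.381), which also overlapped. Vwf, Pecam1 and Tek, between 0.571 and 0.660 CPM per kb on average, could not be ordered among neighbours, and Nos3 was lowest at 0.124 ± 0.0594 CPM per kb.

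In WT/WT libraries the order was another one, with Podxl first at 8.67 ± 1.35 CPM per kb, followed by Cd93 at 3.03 ± 0.218, Cdh5 at 1.55 ± 0.251 and Flt1 at 1.06 ± 0.0602 CPM per kb. Kdr, Eng, Tek and Pecam1 overlapped with their neighbours in the order, between 0.579 and 0.939 CPM per kb on average, and Vwf (0.109 ± 0.0172) and Nos3 (0.0545 ± 0.00669) were lowest. Among all tested genes, the per-kilobase level of Cdh5 was above 80.1% in KO/KO libraries and above 33.2% in WT/WT libraries. That of Podxl was above 32.0% in KO/KO libraries and above 72.1% in WT/WT libraries.

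**Figure D3:**
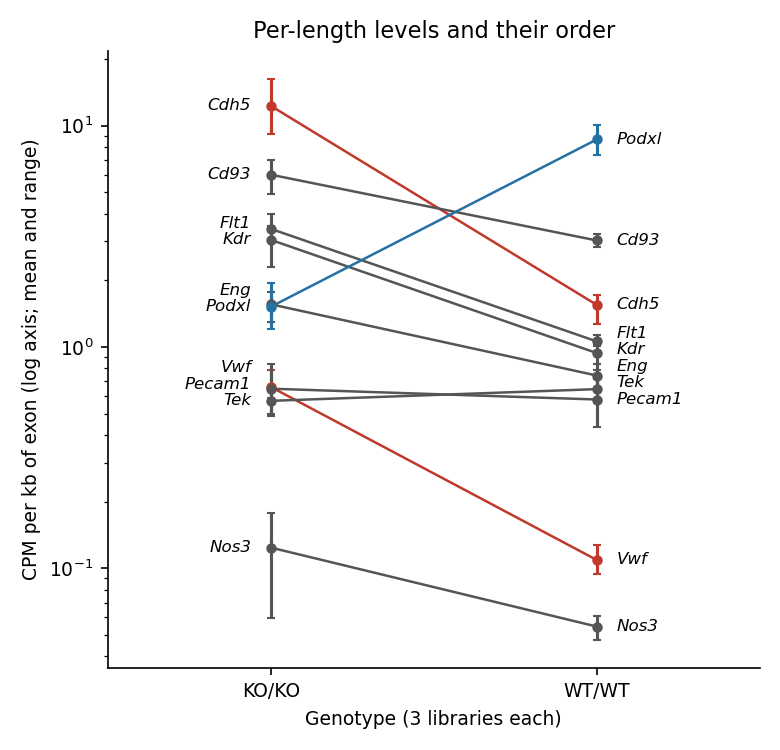
CPM per kilobase of exon of the 10 genes on a log axis, with KO/KO on the left and WT/WT on the right, points for the mean of 3 libraries, bars for their range and a line joining each gene. Cdh5 leads in KO/KO at a mean of 12.3 and Podxl leads in WT/WT at a mean of 8.67 CPM per kb.

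Summed over the 10 genes, KO/KO libraries held 169, 214 and 212 CPM and WT/WT libraries 104, 111 and 111 CPM. Podxl took 6.32%, 3.08% and 3.67% of that sum in KO/KO libraries, against 38.7%, 42.4% and 49.8% in WT/WT libraries. Cdh5 took 22.9%, 32.0% and 22.7% in KO/KO libraries, against 6.74%, 6.52% and 4.80% in WT/WT libraries. The share of Cd93 overlapped between the genotypes, with 19.6%, 19.1% and 22.1% in KO/KO and 20.8%, 18.2% and 17.0% in WT/WT libraries. In the plot of levels per kilobase Cdh5 stands above Podxl in KO/KO and below it in WT/WT libraries.

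Genes for transcription factors of endothelial and blood cells were read in the same libraries, as regulators known to act on several of the surface genes. Of 23 tested, 8 rose, 4 fell and 11 did not pass the test, where 8.33% of all tested genes rose and 6.42% fell, and the median log2 fold change was 0.52, beside 0.00 over all genes. Tal1, a factor of early blood and endothelial cells, had 7.66, 13.9 and 9.82 CPM in KO/KO libraries, against 0.160, 0.0831 and 0.0980 CPM in WT/WT libraries, where it rested on 4 to 7 reads (log2 fold change 6.5, SE 0.36, edgeR adjusted p = 2.26e-05). Gata2, another factor of both lineages, rose to 35.6 ± 8.21 CPM in KO/KO, against 6.88 ± 0.817 CPM in WT/WT (log2 fold change 2.37, SE 0.19, edgeR adjusted p = 0.000152). Hhex rose to 59.8 ± 2.63 CPM in KO/KO, against 36.3 ± 3.76 CPM in WT/WT (log2 fold change 0.72, SE 0.10, edgeR adjusted p = 0.00200).

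Genes of the ETS factors, a family that acts in endothelial cells, were called in both directions, and the 4 given here were chosen with their values known. Fli1 fell to 0.156 ± 0.0143 CPM in KO/KO, against 1.61 ± 0.927 CPM in WT/WT (log2 fold change -3.34, SE 0.51, edgeR adjusted p = 0.00286). Erg had 16.4 ± 6.83 CPM in KO/KO and 32.3 ± 3.01 CPM in WT/WT (edgeR adjusted p = 0.0350), a call lost with KO/KO replicate 2 or any single WT/WT library left out (0.0506 to 0.107). Ets1 had 63.5 ± 12.8 CPM in KO/KO and 41.7 ± 4.39 CPM in WT/WT (log2 fold change 0.61, edgeR adjusted p = 0.0209, lost with WT/WT replicate 2 left out at 0.0910 or replicate 3 at 0.0936). Elk3 had 4.35 ± 1.39 CPM in KO/KO and 1.30 ± 0.596 CPM in WT/WT (log2 fold change 1.74, edgeR adjusted p = 0.0127, lost with WT/WT replicate 2 left out at 0.0644). With WT/WT replicate 2 left out, 3 genes of the list rose and 1 fell. With WT/WT replicate 3 left out 5 rose, and with WT/WT replicate 1 left out 2 fell.

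Other defining markers of endothelial cells were read in the same way. Of 30 such markers, 12 had too few reads to be tested, and none of the 12 exceeded 0.457 CPM in any library. Of the 18 tested, 4 rose, 2 fell and 12 did not pass, where 8.33% of all tested genes rose and 6.42% fell, with a median log2 fold change of 0.40 beside 0.00 over all genes. Plvap, a protein of endothelial pores, had 42.4, 92.0 and 82.3 CPM in KO/KO libraries and 23.6, 26.9 and 16.6 CPM in WT/WT libraries (log2 fold change 1.69, SE 0.27, edgeR adjusted p = 0.00355). Tmem204, a protein of cell contacts, rose to 3.01 ± 0.612 CPM in KO/KO, against 0.420 ± 0.306 CPM in WT/WT (log2 fold change 2.81, SE 0.50, edgeR adjusted p = 0.00565). Shank3, a scaffold protein best known from synapses, had 89.2 ± 7.02 CPM in KO/KO and 61.0 ± 7.83 CPM in WT/WT (edgeR adjusted p = 0.0104, lost without WT/WT replicate 2 at 0.0536). Arhgef15, an endothelial exchange factor chosen with its values known, stood at 42.4 CPM in KO/KO and 43.8 CPM in WT/WT on average. The count that rose was 2 with WT/WT replicate 2 left out, and 0 fell with KO/KO replicate 2 or any single WT/WT library left out.

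The summed level of the 30 markers was between 212 and 287 CPM in KO/KO libraries and between 162 and 201 CPM in WT/WT libraries. Without the most abundant of them, Shank3, Plvap and Arhgef15, the sum was 51.2, 51.6 and 46.2 CPM in KO/KO libraries and 60.1, 60.2 and 54.7 CPM in WT/WT libraries. With Erg also left out, a choice made after seeing the data, the sum was 28.4, 34.5 and 36.9 CPM in KO/KO libraries and 24.9, 31.0 and 22.3 CPM in WT/WT libraries, so the genotypes overlapped and the lower remainder in KO/KO libraries was carried by Erg. Several defining markers of the endothelium were low in both genotypes, of which 3 are given here, chosen with their values known. Emcn, which encodes endomucin, had 1, 0 and 0 reads in KO/KO libraries and 6, 3 and 0 reads in WT/WT libraries. Tie1, the partner of TIE2, had 11, 7 and 4 reads in KO/KO and 6, 6 and 2 reads in WT/WT libraries. Cldn5, the claudin of vessel walls, stood at 0.402, 0.466 and 0.434 CPM in KO/KO and 0.228, 0.104 and 0.0245 CPM in WT/WT libraries. At these low levels Cldn5 was higher in every KO/KO library but was not called (log2 fold change 1.84, SE 0.65, edgeR adjusted p = 0.0914).

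**Figure D4:**
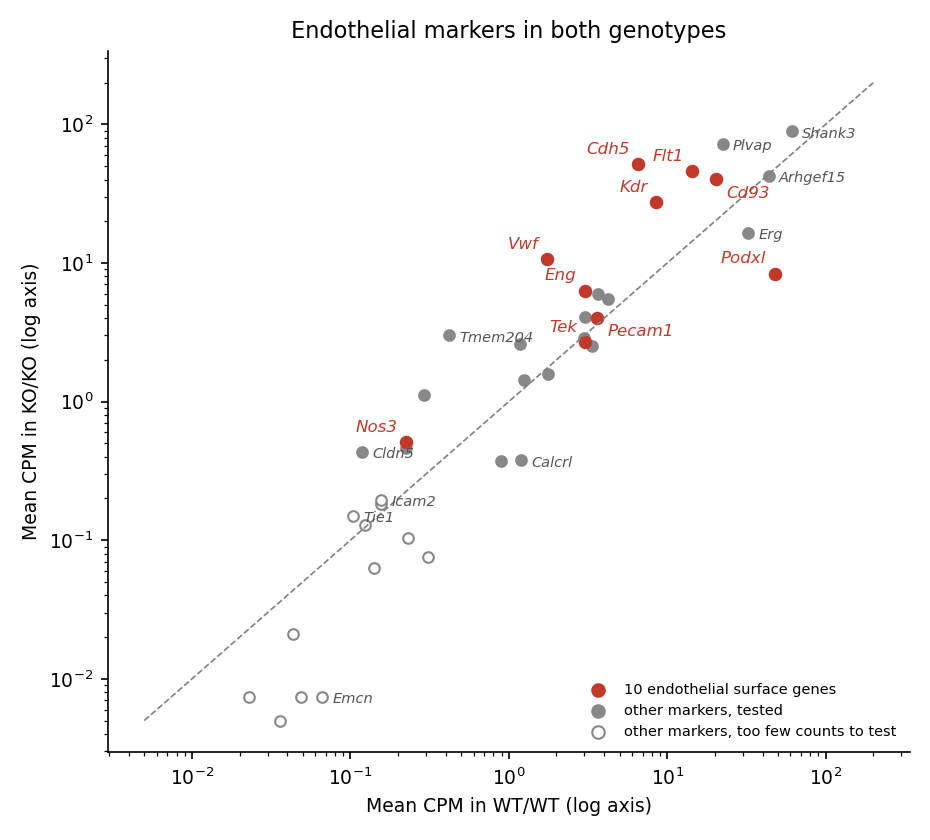
Mean CPM in KO/KO libraries (vertical, log axis) against mean CPM in WT/WT libraries (horizontal, log axis) for the 10 genes (red) and the 30 other endothelial markers (grey, open where not tested), with a dashed line where both are equal and a mean of 0 drawn at 0.005 CPM. Cdh5 and Vwf lie above the line and Podxl below it, and the markers that were not tested lie at the low end.

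Marker lists of other cells that a germ cell sort could hold were read beside these genes. Of 7 tested leukocyte and macrophage markers, 3 rose and 1 fell, where 8.33% of all tested genes rose and 6.42% fell. The median log2 fold change of these markers was 0.83, beside 0.00 over all genes. Another 9 had too few reads to be tested, with at most 15 in any library. Of these, Adgre1 and Csf1r, chosen with their values known, had at most 4 reads in any library. Their summed level was between 16.7 and 29.4 CPM in KO/KO libraries and between 16.9 and 18.7 CPM in WT/WT libraries. Cd68, a lysosomal protein of macrophages, rose to 4.07 ± 0.646 CPM in KO/KO, against 1.48 ± 0.278 CPM in WT/WT (log2 fold change 1.47, SE 0.24, edgeR adjusted p = 0.00402), and was the only one of the 4 called in the full set and in all 6 sets with 1 library left out. With KO/KO replicate 3 or any single WT/WT library left out 1 leukocyte marker rose, and with any single WT/WT library left out 0 fell. Of 11 platelet markers 3 were tested and 1, Gp5, rose, where 8.33% of all tested genes did. The sums lay between 19.1 and 24.5 CPM in KO/KO and between 13.4 and 17.3 CPM in WT/WT libraries. Most of each sum came from Itgb3, with 17.1, 21.9 and 17.5 CPM in KO/KO and 14.5, 15.2 and 12.3 CPM in WT/WT libraries (edgeR adjusted p = 0.0772). Gp9, Gp1bb, Pf4 and Ppbp, chosen with their values known, had no read in any library. The count of platelet markers that rose was 0 without KO/KO replicate 3, WT/WT replicate 2 or WT/WT replicate 3. The part of such cells in the levels of the 10 genes was not tested.

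Lymphatic endothelial markers included 2 that rose of 6 tested and 0 that fell by edgeR, where 8.33% of all tested genes rose and 6.42% fell. At an unadjusted p under 0.05, 2 of these markers rose and 1 fell, where 6284 of all 21314 tested genes had such a p in either direction. DESeq2 and limma-voom called 0 lower. Their median log2 fold change was -0.06, beside 0.00 over all genes. The genes that rose were Flt4, described above, and Lyve1, a hyaluronan receptor, with 7.49 ± 4.30 CPM in KO/KO and 2.36 ± 0.351 CPM in WT/WT (edgeR adjusted p = 0.0177, lost with each WT/WT library left out in turn at 0.0532 to 0.0772, which leaves 1 gene that rose). Prox1, the factor that defines lymphatic vessels, stood at 0.791 CPM in KO/KO and 1.62 CPM in WT/WT on average (edgeR adjusted p = 0.122). The summed level of the list was between 108 and 204 CPM in KO/KO libraries and between 157 and 207 CPM in WT/WT libraries, and with KO/KO replicate 2 left out 2 genes fell. Pericyte and smooth muscle markers, which mark the cells wrapped around vessels, had 0 of 9 called by edgeR or limma-voom, beside 8.33% and 6.42% over all genes by edgeR. At an unadjusted p under 0.05, 1 was higher and 1 lower, beside 6284 of 21314 genes in either direction, and DESeq2 called 1 higher and 1 lower. Without WT/WT replicate 3, edgeR called 1 of these markers lower. Their median log2 fold change was -0.22, and their sums were between 14.9 and 18.1 CPM in KO/KO and between 11.5 and 26.2 CPM in WT/WT libraries.

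Of 15 Sertoli cell markers 0 passed the test by edgeR, DESeq2 or limma-voom and 0 had an unadjusted p under 0.05. Over all tested genes 8.33% rose and 6.42% fell by edgeR, and 6284 of 21314 had an unadjusted p under 0.05 in either direction. The Sertoli cell markers had a median log2 fold change of 0.04. Their sums lay between 660 and 951 CPM in KO/KO and between 640 and 947 CPM in WT/WT libraries. Clu, the most abundant of these, stood at 241 ± 53.9 CPM in KO/KO and 256 ± 63.4 CPM in WT/WT (n = 3 each, edgeR adjusted p = 0.811). Leydig cell markers, of which 3 were tested, had 0 calls by any of these tests and 0 at an unadjusted p under 0.05, while with KO/KO replicate 3 left out 2 fell and with WT/WT replicate 1 left out 1 did, with sums between 3.61 and 7.24 CPM in KO/KO and between 6.58 and 16.0 CPM in WT/WT libraries and a median of -1.21. Of 3 tested erythroid genes the haemoglobin gene Hbb-bs rose, where 8.33% of all tested genes did. Its call was lost with KO/KO replicate 3 or any single WT/WT library left out and was not made by DESeq2 or limma-voom. With KO/KO replicate 1 left out 2 erythroid genes rose. Their sums lay between 0.536 and 7.58 CPM in KO/KO and between 0.519 and 1.80 CPM in WT/WT libraries.

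Among 15 germ cell markers 5 rose and 2 fell, where 8.33% of all tested genes rose and 6.42% fell. Their median log2 fold change was -0.27, beside 0.00 over all genes, with sums between 2454 and 2823 CPM in KO/KO and between 2354 and 2523 CPM in WT/WT libraries. Id4, the gene whose reporter was used for the sort, rose to 141 ± 47.3 CPM in KO/KO, against 37.8 ± 0.780 CPM in WT/WT (log2 fold change 1.89, SE 0.22, edgeR adjusted p = 0.000814). Gfra1 and Ret, which encode the receptor for the growth factor GDNF that maintains spermatogonial stem cells, stood at 229 ± 39.6 and 341 ± 45.7 CPM in KO/KO and at 114 ± 12.2 and 195 ± 9.75 CPM in WT/WT libraries, with log2 fold changes of 1.01 and 0.80. The genes that fell were Zbtb16 and Sall4, given here with their values known. Zbtb16 stood at 308 ± 25.4 CPM in KO/KO and 456 ± 43.9 CPM in WT/WT (log2 fold change -0.56, SE 0.09, edgeR adjusted p = 0.0043), and its call held with each library left out in turn. Sall4 stood at 232 ± 27.9 CPM in KO/KO and 299 ± 31 CPM in WT/WT (edgeR adjusted p = 0.0485), a call that held only with KO/KO replicate 2 left out. The count that fell was 4 with KO/KO replicate 2 left out and 1 with any single WT/WT library left out. The sort used Id4-GFP, so the makeup of the sorted cells and the level of Id4 and of the 10 genes per cell cannot be told apart in these data.

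For Cdh5, Kdr, Flt1 and Vwf, all higher in KO/KO libraries, the genes with the nearest profile over the 6 libraries were found. The measure was the root mean square difference of centred log2 CPM among 11817 genes. Profiles near Podxl, which was lower in KO/KO libraries, were not sought. Nearest to Cdh5 were Pzp and Krt18, both at 0.18, then Msx2 at 0.24 and Arhgap8 at 0.26. Nearest to Kdr were Gpsm3 at 0.05, Fam43a at 0.08, and Psd4 and Cdk18 at 0.10, and nearest to Flt1 were Arhgef10l and Psd4 at 0.12, Nbeal2 at 0.13 and Fzd2 at 0.15. Psd4 was thus near both VEGF receptor genes. Nearest to Vwf were Dennd3 at 0.10, Flt4 at 0.16, Fcgr3 at 0.20 and Il16 at 0.21, so that of all these only Flt4 is in the endothelial lists.

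The genes beside the members on the chromosome were mixed as well. Of 20 nearest protein-coding neighbours, 18 were tested, 2 were called higher, 2 lower and 14 not called. Over all tested genes 8.33% were called higher and 6.42% lower, and the neighbours were not tested against these shares. Srd5a3, the nearer of the neighbours of Kdr at 162 kb, stood at 8.12 ± 1.17 CPM in KO/KO and 9.12 ± 1 CPM in WT/WT (edgeR adjusted p = 0.555). Kit, the receptor of differentiating spermatogonia, lies on the other side of Kdr, 276 kb away, and went the other way from Kdr. It had 38.6, 5.63 and 8.44 CPM in KO/KO libraries and 118, 98.9 and 150 CPM in WT/WT libraries (log2 fold change -2.81, SE 0.59, edgeR adjusted p = 0.0129). Bean1, 25.9 kb from Cdh5, fell to 0.823 ± 0.360 CPM in KO/KO, against 1.90 ± 0.271 CPM in WT/WT (edgeR adjusted p = 0.0447), and Cd9, 52.0 kb from Vwf, rose to 34.6 ± 2.77 CPM in KO/KO, against 26.3 ± 1.30 CPM in WT/WT (edgeR adjusted p = 0.0334). Both calls held only with KO/KO replicate 2 as the library left out, and lay at 0.0846 to 0.145 for Bean1 and 0.0608 to 0.133 for Cd9 with each other library left out. Mkln1, 2.68 kb from Podxl, stood at 73.2 ± 4.89 CPM in KO/KO and 68.4 ± 2.28 CPM in WT/WT, and Pan3, 13.1 kb from Flt1, at 114 ± 8.72 CPM in KO/KO and 119 ± 5.62 CPM in WT/WT, neither past the test (edgeR adjusted p = 0.490 and 0.716). Tex2, 40.8 kb from Pecam1, rose to 74.1 ± 11.4 CPM in KO/KO, against 47.9 ± 1.15 CPM in WT/WT (log2 fold change 0.63, SE 0.11, edgeR adjusted p = 0.00627), while Pecam1 itself overlapped between the genotypes.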

How the data were processed

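RNA was sequenced from 3 Dnmt3A KO/KO and 3 WT/WT samples. Per the labels' protocols, a PicoPure kit was used for extraction, DNA was digested, and a SMARTer stranded kit for total RNA was used for the libraries. The authors deposited raw read counts for 54087 genes and 1205 transposable element families. Per the submitters' processing notes they used STAR 2.7.0a, featureCounts 1.5.1 and the mm10 genome. Strand setting, annotation release and handling of multiply mapping reads were not given in the sources used here. Overlapping genes may share counts for that reason.

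Each library totalled between 49694994 and 72742392 counts, of which transposable element families took 14.1% to 15.5%, and library sizes were taken over gene rows alone. The main test was the quasi-likelihood test of edgeR 4.0.16 (R 4.3.3) on the 21314 genes that filterByExpr kept, with TMM factors and a term for genotype. Two-sided p-values were adjusted over all tested genes by Benjamini-Hochberg and called under 0.05. Each standard error is the fold change's size over the square root of its F value. The script was tested on simulated counts. Other settings tried were size factors by RLE or upper quartile, testing without a filter or with at least 1 CPM in 3 libraries, a replicate block, leaving out each library, DESeq2 1.42.0, and voom in limma 3.58.1.

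The 10 genes and the 18 gene lists were chosen with earlier results of these data known, and some genes stand in more than 1 list. The rule for genes named takes the 10 genes, Dnmt3a, Kit, Tal1, up to 3 genes per list with the smallest p, the 2 most abundant genes of a cell type list, the nearest protein-coding neighbours on either side and the 4 nearest profiles. For the profiles 0.1 CPM was added before the log, and genes under an average log2 CPM of 1 or with predicted or clone symbols were left out. Any other gene is said to be chosen with its values known. Some genes that the rule allows are not reported here. Coordinates, overlaps and exon lengths (the union of all exons) are those of GENCODE M21 (GRCm38, of which mm10 is the UCSC name), and promoters are those of RefSeq. Plots were made in Python 3.11.15 using matplotlib 3.10.9.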

Additional observations from a re-analysis of the deposited data

How the results depend on the processing

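The log2 fold changes of the 10 genes moved by less than the spread between replicates under every alternative that gave a value; Nos3 has none with the filter at 1 CPM, which removes it. The genes were chosen from this comparison, so this is no sign of stability. Over all genes, 1776 rose and 1368 fell, with 1467 and 1107 under the replicate block and 2230 and 1703 by DESeq2. Leaving out 1 library gave between 814 and 1985 that rose and between 560 and 1380 that fell, and the lowest counts came with WT/WT replicate 2 left out (1083 and 652 for WT/WT replicate 1, 892 and 663 for WT/WT replicate 3). Of the other endothelial markers, 4 rose (2 to 6 with 1 library left out) and 2 fell (0 to 2 with 1 library left out, 1 with the filter at 1 CPM and 1 under the replicate block).

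Same-numbered libraries were no more alike than others: their deviations correlated at -0.126, 0.0499 and 0.0579, and other pairs at between -0.245 and 0.224. With 3 libraries per genotype these values cannot exclude a pairing of the samples. Under the block 1 nitric oxide gene, 2 genes of the Von Willebrand factor list and 0 erythroid genes rose, while 2 Leydig cell markers and 0 genes of the CD93 list fell. Groups of 3 libraries limit every comparison, and depth limits Nos3, with 8 to 36 reads per library, and the untested markers.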
